A study of Schizosaccharomyces pombe with 4 samples.

Results

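Reads that mapped to no annotated feature were examined in 4 libraries made by CRAC, in which RNA is cross-linked to protein by UV light, a tagged protein is purified and the RNA still attached is sequenced. Records of the deposited files that carry no feature name were taken, and those that overlap on the same chromosome and strand in any library were merged, which gave 1999 loci built from 6526 of the 57697 distinct intervals (chromosome, start, end and strand) of the 4 libraries. A single locus on chromosome XIII was set apart from the other 1998. The 2 Seb1-HTP libraries came from a fission yeast strain (Schizosaccharomyces pombe) of mating type h+ that carries the alleles ade6-M216, leu1-32, ura4-delta_18 and his3delta_1 and, as Seb1-HTP::KAN, the HTP tag on Seb1. The 2 untagged control libraries came from the parental strain, which has all of these alleles but not the tag, and which recovers RNA that comes through the purification without a bait. All cultures grew exponentially at 30 °C in YES, a rich medium, and were irradiated for 3 min. The 2 libraries of a group are biological replicates by the series' design text.

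Seb1 is an RNA-binding protein related to Nrd1 of the budding yeast Saccharomyces cerevisiae. It travels with RNA polymerase II, binds short motifs in the new transcript and acts in 3′ end processing and transcription termination. Both proteins act on RNA beyond the ends of annotated genes, and in budding yeast much of the transcription between genes gives short-lived RNAs that carry class names such as CUT, SUT and XUT in annotations. Reads outside annotated features are therefore of interest in a cross-linking study of this family of proteins.

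The files place the S. pombe reads on the chromosomes of S. cerevisiae, although the submitters' processing notes name the S. pombe build ASM294v2. A locus below is a stretch of S. cerevisiae sequence to which S. pombe library reads were matched, at the position the files give, and a neighbouring gene is the S. cerevisiae gene. Whether the S. pombe RNA behind it is itself unannotated was not tested, and which S. cerevisiae release was used is not stated in any source used here. The 2 controls held 4654 and 45491 mapped reads and the 2 Seb1-HTP libraries 273840 and 243591, so a locus has to be far more abundant to be met in a control. A library without a read of a locus may still hold up to 3 reads' worth of it, and this floor is 0.0645% and 0.00659% of mapped reads in the controls. Intervals are 95% Wilson intervals, and they and the floors cover counting error only, since repeated reads of 1 molecule may be counted.

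These loci were built only from records without a name, so their distance from named records does not test that label. In 107 loci (5.35%, with 1769 reads) the merged stretch overlapped another record that does name a feature. Whether these loci touch the feature itself was not tested, because distances were measured to records. The median distance from a locus to the nearest record with a name, on either strand, was 431 nt, and the largest was 14867 nt.

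Unannotated reads were a small part of each library. They numbered 75 in untagged control 1 and 152 in untagged control 2, against 5810 in Seb1-HTP 1 and 11935 in Seb1-HTP 2. As shares of mapped reads, control 1 stood at 1.61% (interval 1.29 to 2.02), control 2 at 0.334% (0.285 to 0.392), Seb1-HTP 1 at 2.12% (2.07 to 2.18) and Seb1-HTP 2 at 4.90% (4.81 to 4.99). Both Seb1-HTP libraries were above both controls, but control 1 lay closer to Seb1-HTP 1 than to control 2. The group means were 0.973% ± 0.903 (SD, n = 2) and 3.51% ± 1.96 (SD, n = 2), with p = 0.333 in an exact two-sided permutation test, the smallest value that 2 against 2 libraries allow. Without the chromosome XIII locus the shares were 1.61% and 0.334% in the controls, against 1.08% and 3.24% with Seb1-HTP, and the groups overlapped (exact permutation p = 0.667).

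**Figure D1:**
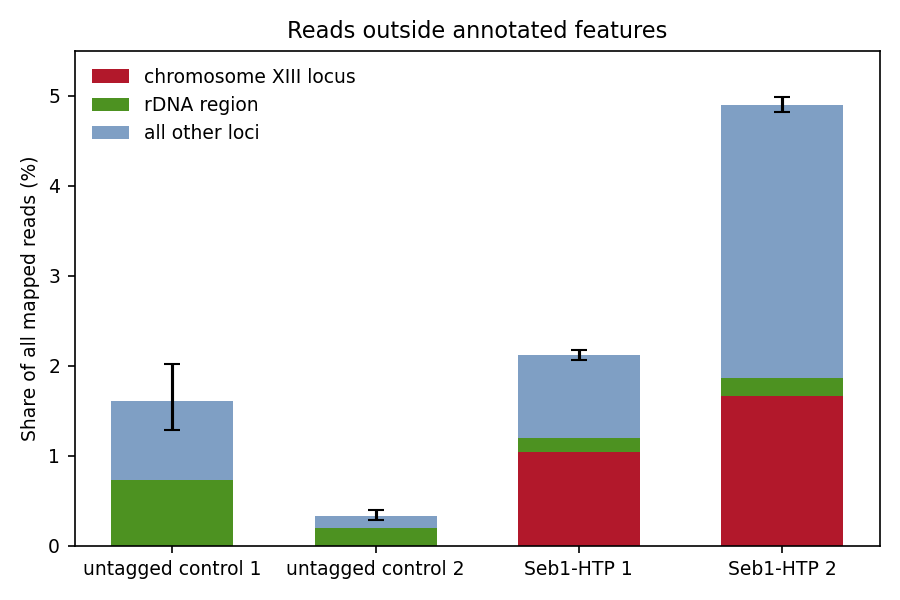
Share of all mapped reads (%) that named no feature, by library. Each bar is split into the chromosome XIII locus, loci of the rDNA region and all other loci, and the error bar is the 95% Wilson interval of the whole share. The chromosome XIII locus makes up 1.05% and 1.66% of mapped reads in the Seb1-HTP libraries and is missing from both controls.

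The unannotated reads fell into 3 sets of different make-up. The chromosome XIII locus held 0 and 0 reads in the controls, compared with 2863 and 4052 with Seb1-HTP, which was 49.3% (interval 48.0 to 50.6) and 34.0% (33.1 to 34.8) of all unannotated reads. Loci of the rDNA region, the span of chromosome XII from the first to the last record that names ribosomal RNA or the rDNA-like frames RRT15 and YLR162W, whatever else lies between, held 34 and 88 reads in the controls (45.3% and 57.9% of unannotated reads) and 421 and 492 with Seb1-HTP (7.25% and 4.12%). The remaining 1952 loci held 41 and 64 control reads and 2526 and 7391 Seb1-HTP reads. In the controls the rDNA region and the scattered loci thus held similar numbers of reads, and with Seb1-HTP the rDNA region was the smallest of the 3 sets.

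The chromosome XIII locus lay on the plus strand at XIII:238741-238962, 222 nt long, and the nearest record with a name, for CUT290 of the CUT class of unstable RNAs, was 28 nt away. It was not met in either control. Per 1000000 reads that name a feature (RPM), it stood at 10682 in Seb1-HTP 1 and 17492 in Seb1-HTP 2, a mean of 14087 ± 4815 (SD, n = 2). Both libraries thus held it at a level far above that of any other unannotated locus, as the plot of loci by Seb1-HTP library shows. At the pooled Seb1-HTP share the controls would have held 63.4 and 627 reads of it. Against a floor of 3 reads over the 2 controls together, the locus was at least 230-fold higher with Seb1-HTP, and at least 21.1-fold higher with control 2 left out. Counted as distinct intervals, each once per library, it was at least 3.02-fold higher (5.35-fold without Seb1-HTP 2, 2.06-fold without Seb1-HTP 1). Without control 2 this bound fell under 1.

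The call for this locus depended on the settings. Among 205 loci and 559 singly named features tested together by edgeR's quasi-likelihood test with Benjamini-Hochberg adjustment, it had the smallest p of the loci (unadjusted 0.000218) and an adjusted p of 0.166, with more reads in 2 of 2 Seb1-HTP libraries than in either control. Over the alternatives the adjusted p ran from 4.67e-05 with DESeq2 to 0.331 with edgeR without control 2, and it was 0.000629 with edgeR without control 1.

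Reads of the chromosome XIII locus formed a ladder from 1 fixed start. Their 5′ end was at position 238752 in 87.2% of reads in Seb1-HTP 1 and 99.3% in Seb1-HTP 2. A second start 2 nt downstream held 348 reads (12.2%) in Seb1-HTP 1 and 0 in Seb1-HTP 2, a clear difference in outline between the 2 libraries. The 3′ ends were spread instead: 98.0% and 98.6% of reads were 18 to 36 nt long, the commonest interval being 36 nt in Seb1-HTP 1 (386 reads, 13.5%) and 35 nt in Seb1-HTP 2 (630 reads, 15.5%). Only 3 and 7 reads reached 100 nt. The whole locus came to 54 and 50 distinct intervals, or 53.0 and 81.0 reads for each, where the loci outside it and outside the rDNA region had 1.47 and 1.61.

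Substitutions at the chromosome XIII locus followed read length. In Seb1-HTP 1 and 2, 46.6% and 47.0% of reads had neither a substitution nor a deletion against the genome of the files, 33.6% and 35.1% had 1 difference, and 4 and 0 reads had a deletion. Of the reads of 24 nt or less from the common start, 95.9% and 95.2% had no difference. Of those of 30 to 36 nt, 16.02% and 15.93% had none. The short reads thus matched S. cerevisiae sequence and the long ones mostly did not match it throughout.

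The differences sat in a narrow stretch near the 3′ end. Counted from 1 at the common 5′ end, positions 25 to 31 held 86.9% and 90.3% of all substitutions in those reads, and positions 1 to 24 held 2.77% and 3.04%. The commonest substituted position moved with the length of the read: it was 27 in reads of 30 nt (60.8% and 61.3% of them), 28 in reads of 32 nt (61.2% and 54.5%) and 29 in reads of 33 nt (55.2% and 46.3%). In reads of 34 nt it was back at 27 (43.5% and 38.8%). The commonest substitution thus lay 3 or 4 nt before the 3′ end in reads of 29 to 33 nt and 7 or 8 nt before it in reads of 34 to 36 nt. The few longer reads did not continue this order: all 32 reads of 40 nt in Seb1-HTP 1 were substituted at their last position. No position of this locus differed in 80% or more of the covering reads of both libraries.

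**Figure D2:**
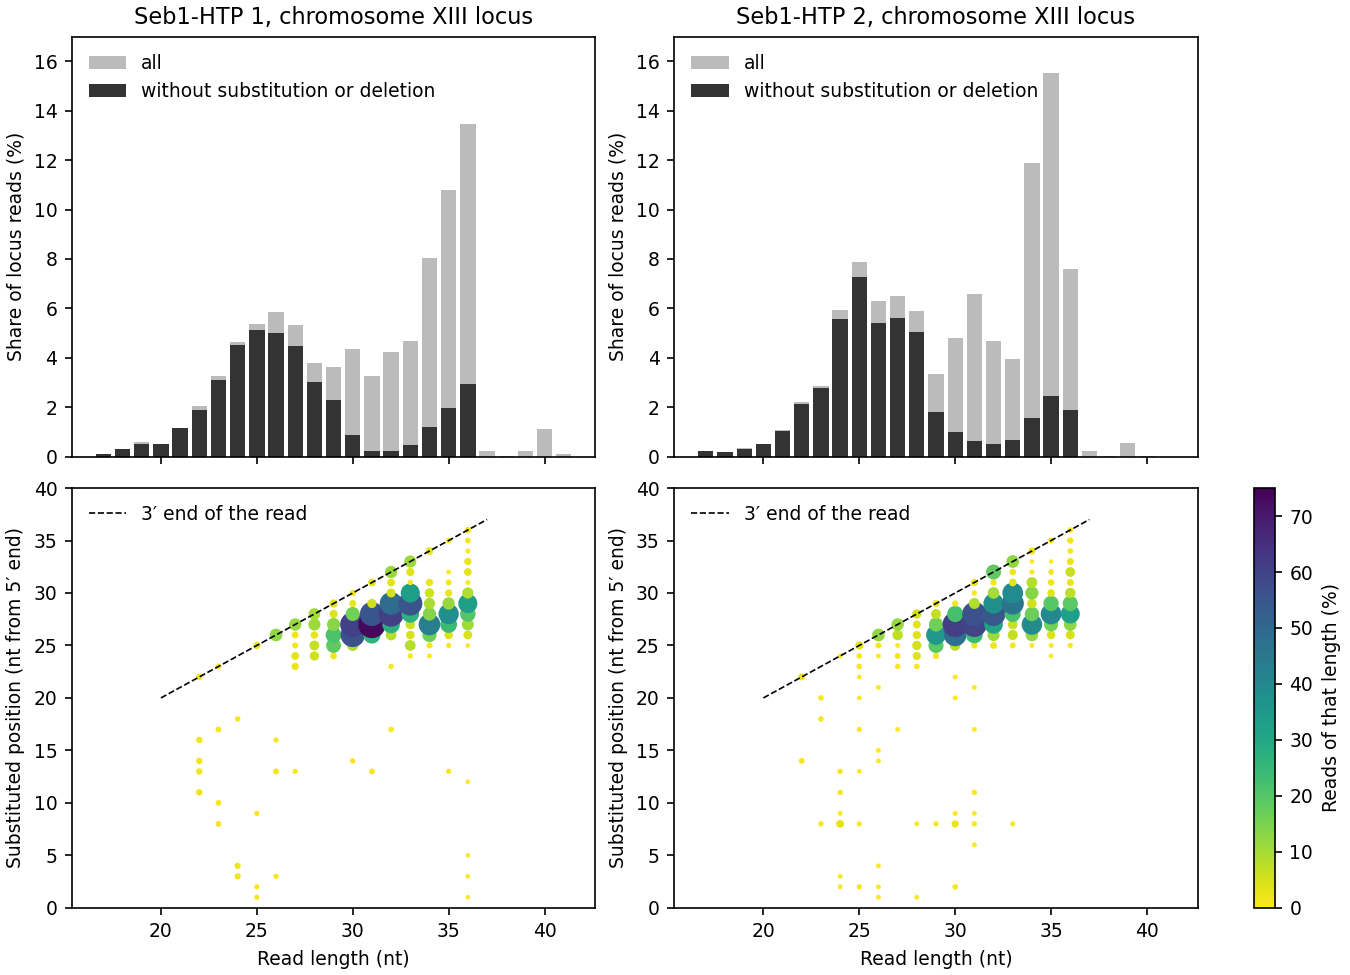
Reads of the chromosome XIII locus that start at its common 5′ end, in the 2 Seb1-HTP libraries. Upper panels give the share of the locus's reads (%) at each read length (nt), with reads free of substitutions and deletions in black, and lower panels give the substituted position (nt from the 5′ end) against read length for lengths with at least 50 reads, point size and colour showing the share of reads of that length (%). In both libraries reads up to about 28 nt are mostly free of differences, and the substitutions of longer reads lie at positions 25 to 31.

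The strand opposite the chromosome XIII locus held few reads. A minus-strand locus at XIII:238741-238807 had 0, 0, 11 and 40 reads in control 1, control 2, Seb1-HTP 1 and Seb1-HTP 2, and one at XIII:238937-238964 had 0, 0, 0 and 19. The signal was therefore almost wholly on 1 strand.

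The largest locus of the rDNA region was the one in which the controls stood highest. It lay on the minus strand at XII:489940-490398, 459 nt long, and was the longest of all loci. It lies among records of RRT15 and YLR162W, small frames whose sequence resembles ribosomal DNA, and records naming RRT15 overlap it. Its reads numbered 32 and 75 in the controls, against 403 and 366 with Seb1-HTP. In RPM these were 6988 in control 1 and 1654, 1504 and 1580 in control 2, Seb1-HTP 1 and Seb1-HTP 2, so that control 1 stood apart and the other 3 libraries were close together. With edgeR, the log2 fold change of Seb1-HTP over control was -1.48 (SE 2.12, adjusted p = 0.567), and with TMM factors or DESeq2 it was 0.75 or 0.77, so no direction holds.

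Fragments of this rDNA-region locus were long and varied. Mean read lengths were 57.8 and 58.0 nt in the controls, compared with 60.4 and 58.9 nt with Seb1-HTP. Deletions can arise in CRAC when reverse transcriptase passes a cross-linked base. Here S. pombe reads were set against S. cerevisiae sequence, and whether a listed deletion came from cross-linking was not tested. Deletions were listed in 6 of 32 (18.8%) and 7 of 75 (9.33%) control reads and in 27.5% and 15.3% of Seb1-HTP reads. The groups overlapped in the share with deletions, and both Seb1-HTP libraries were slightly longer in mean length than both controls. At position 490111 every Seb1-HTP read that covered it differed from the genome, in both libraries.

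Other long loci near the rDNA were thin. XII:467017-467272 (minus, 256 nt, 111 nt from records of the 18S rRNA copy RDN18-2) had 0, 0, 0 and 19 reads in control 1, control 2, Seb1-HTP 1 and Seb1-HTP 2. XII:459799-460022 (minus, 224 nt, overlapped by records of the 5S gene RDN5-1) had 0, 0, 5 and 20. XII:451420-451640 (plus, 221 nt, 140 nt from records of the 25S copy RDN25-1 and just outside the region as defined) had 4, 5, 1 and 29, and XII:460623-460705 (plus, overlapped by records of XUT_12F-188) had 2, 1, 0 and 14. The first and second of these were met with Seb1-HTP alone and the others in both groups, and none passed the test (edgeR adjusted p = 0.522 for each).

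The other loci were many, short and thin. Of all 1999 loci, 1055 (52.8%) rested on a single read, 205 had at least 10 reads, 29 at least 50 and 15 at least 100. Their median length was 21 nt, with a range of 17 to 459 nt, and 1275 (63.8%) were no longer than 25 nt. Together they covered 55606 nt. Most of the list is therefore short stretches met by a read or a few, and 15 loci were 100 nt or longer, 5 of them in the rDNA region.

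Few loci were shared by all libraries. Reads lay in 27 loci in control 1, 52 in control 2, 724 in Seb1-HTP 1 and 1661 in Seb1-HTP 2. There were 1563 loci met in 1 library, 411 in 2, 21 in 3 and 4 in all 4. The 2 controls shared 5 loci, which is 18.5% of those of control 1 and 9.62% of those of control 2. Of the control loci, 22 of control 1 and 22 of control 2 were also met with Seb1-HTP, and 35 were met in controls only.

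The 2 Seb1-HTP libraries had 421 loci in common, 58.1% of those of Seb1-HTP 1 and 25.3% of those of Seb1-HTP 2. Outside the chromosome XIII locus, these common loci held 85.2% of the unannotated reads of Seb1-HTP 1 and 65.9% of those of Seb1-HTP 2. The reads were thus shared between the libraries more than the list of loci was. The 20 largest loci of each library, again without chromosome XIII, held 39.4% and 26.7%.

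Levels of single loci differed between the Seb1-HTP libraries. For 171 loci of at least 10 reads that lay outside the rDNA region and the chromosome XIII locus and were met in both, the RPM in Seb1-HTP 2 was a median 3.28 times that in Seb1-HTP 1, and it was higher in 149 of them. For the chromosome XIII locus the ratio was 1.64. All loci of this kind also held a greater share of mapped reads in Seb1-HTP 2, 3.03% against 0.922%. The same held for named reads outside chromosome XII, which were 35503 of 231656 named reads in Seb1-HTP 2 and 12373 of 268030 in Seb1-HTP 1. The higher RPM in Seb1-HTP 2 was thus not particular to unannotated loci.

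**Figure D3:**
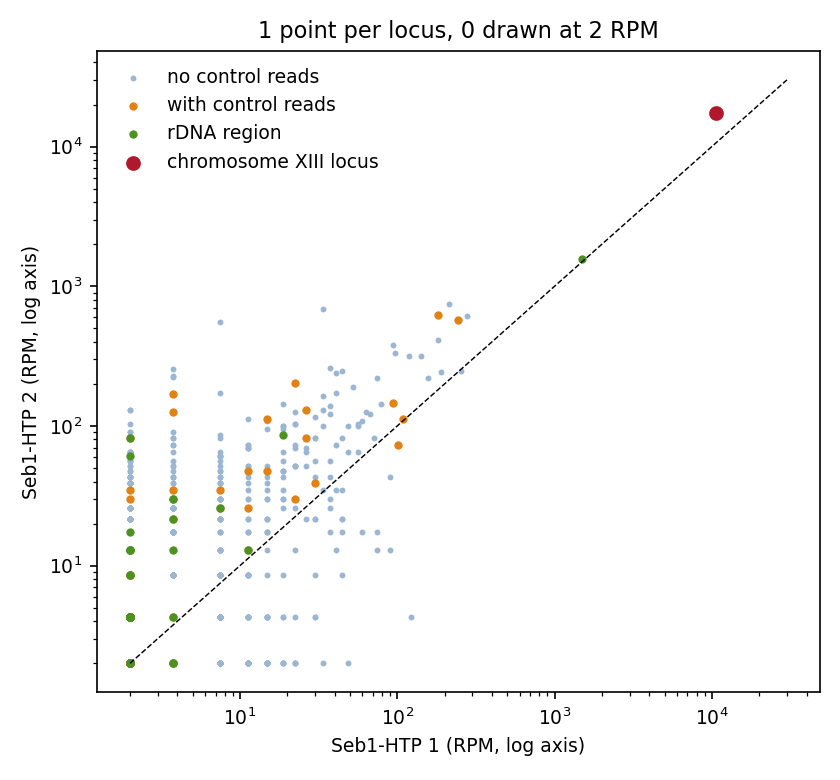
RPM of each unannotated locus in Seb1-HTP 1 and Seb1-HTP 2, both on log axes, with a count of 0 drawn at 2 RPM and the dashed line marking equal levels. Colours separate the chromosome XIII locus, the rDNA region, and other loci with and without control reads. Most loci lie above the line, and the chromosome XIII locus stands apart at 10682 and 17492 RPM.

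Set against reads that name a feature on the other chromosomes, the unannotated share was alike in the 2 Seb1-HTP libraries. Outside chromosome XII, which carries the rDNA, and without the chromosome XIII locus, unannotated reads were 32 of 314 and 54 of 748 in the controls, or 10.2% (interval 7.31 to 14.0) and 7.22% (5.58 to 9.30). With Seb1-HTP they were 2345 of 14718 and 6836 of 42339, or 15.9% (15.4 to 16.5) and 16.1% (15.8 to 16.5). Both Seb1-HTP libraries were above both controls, and their intervals did not overlap those of the controls. The means were 8.71% ± 2.10 (SD, n = 2) and 16.04% ± 0.151 (SD, n = 2), a ratio of 1.84, with p = 0.333 in the exact permutation test. As distinct intervals the shares were 11.9% and 7.78% in the controls, against 26.7% and 18.01% with Seb1-HTP, so the closeness of the 2 Seb1-HTP libraries held for reads and not for distinct intervals.

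The reads outside the rDNA region and the chromosome XIII locus were spread over all chromosomes and the mitochondrial genome. Chromosome IV held 11.5% and 8.93% of them in Seb1-HTP 1 and 2, chromosome XV 10.4% and 10.99%, and chromosome VII 9.03% and 10.6%. The mitochondrial genome held 7.89% of these loci and 2.97% and 2.62% of their reads. No chromosome held more than 11.5% in either Seb1-HTP library.

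After the loci XIII:238741-238962 and XII:489940-490398, the best covered lay on the minus strand at VIII:549748-549816. It had 0 and 0 reads in the controls, compared with 57 and 174 with Seb1-HTP, in 109 distinct intervals, and the nearest records, 638 nt away, named YHR214C-C and YHR214C-B. On the plus strand at VI:210333-210416, 196 nt from records of the tRNA gene SUP6, the counts were 0, 0, 74 and 143, in 112 distinct intervals. These were the highest lower bounds after chromosome XIII, at least 7.69-fold and 7.23-fold above the floor of 3 reads over the 2 controls. Without control 2 both bounds fell under 1.

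Near URA7, which encodes a CTP synthase, reads lay on both strands. The plus strand at II:145883-145949 had 1 and 0 control reads and 65 and 133 Seb1-HTP reads, and the minus strand at II:145889-145936 had 0, 0, 9 and 158. The minus strand was thus low in Seb1-HTP 1 and the higher of the 2 strands in Seb1-HTP 2. In 86.2% of minus-strand reads the 5′ end was at position 145935.

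A like pair lay 203 nt from records of BOI2, which acts in polarised bud growth. The plus strand at V:394059-394105 had 2, 0, 49 and 144 reads in control 1, control 2, Seb1-HTP 1 and Seb1-HTP 2, and the minus strand at V:394069-394099 had 0, 0, 26 and 77. Reads of both strands differed from the genome at position 394074, in 35.6% and 92.6% of the covering plus-strand reads of Seb1-HTP 1 and 2 and in 100% and 82.2% of the minus-strand reads. The same position thus differed on both strands, but in Seb1-HTP 1 most plus-strand reads did not differ there.

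A pair on different chromosomes had similar outlines. The minus strand at I:223110-223179 (70 nt, 1946 nt from records of YAR066W) had 0, 0, 32 and 73 reads, and the locus of chromosome VIII described first was 69 nt long. Each also had plus-strand reads, 0, 0, 2 and 40 on chromosome I and 0, 0, 1 and 53 on chromosome VIII. Sequence shared between the 2 sites, which could divide reads between them, was not tested.

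The next loci in order of mean RPM with Seb1-HTP had no control reads. XV:967935-967968 (minus, 563 nt from records of XUT_15F-435) had 49 and 96 reads in Seb1-HTP 1 and 2, and V:225397-225438 (minus, 130 nt from records of ARB1, an ATPase of ribosome assembly and export) had 68 and 57. VII:278767-278821 (minus, 505 nt from records of RPS2, a protein of the small ribosomal subunit) had 25 and 88, and XV:960763-960809 (plus, 1461 nt from records of RPA190, the largest subunit of RNA polymerase I) had 38 and 73. XV:216896-216936 (plus, 128 nt from records of CUT_COL059WD2) had 2 and 128, nearly all in 1 library. Apart from that locus, the Seb1-HTP libraries stood within a factor of 5 of each other in RPM at these sites, and at V:225397-225438 they were closest, at 253.7 and 246.1 RPM.

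Beside the locus of the rDNA region, 3 loci had reads in all 4 libraries. X:227941-228090 (minus, 120 nt from records of the box H/ACA small nucleolar RNA snR37) had 2, 5, 25 and 34 reads in control 1, control 2, Seb1-HTP 1 and Seb1-HTP 2. VII:999543-999577 (plus, overlapped by records of SUT571) had 1, 3, 6 and 47, and the third was XII:451420-451640, given above. In RPM the snR37-side locus stood at 437, 110, 93.3 and 147 and the SUT571 locus at 218, 66.2, 22.4 and 203, so the groups overlapped at both.

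Of the 4 loci with the highest mean in the controls, XII:489940-490398 and XII:451420-451640, given above, had reads in both controls, and the other 2 had them in control 1 alone. XV:842651-842720 (plus, 50 nt from records of the box H/ACA RNA snR5) had 7, 0, 1 and 5 reads in control 1, control 2, Seb1-HTP 1 and Seb1-HTP 2, and XII:1024974-1025023 (minus, 159 nt from records of YLR446W) had 3, 0, 8 and 9. In control 2 both were at 0. The log2 fold changes with edgeR were -5.72 (SE 3.07) and -2.93 (SE 2.82), with an adjusted p of 0.522 for each.

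With the main settings no unannotated locus passed the test between the groups, but the test had little power at the fitted dispersion. In counts simulated at that dispersion, 1.70, edgeR called 0 of 47 rows raised 16-fold and 0 of 50 raised 64-fold. At a dispersion of 0.1 it called 50 of 50 at each of these folds. Every simulated row had the same dispersion and none was raised more than 64-fold, so the chromosome XIII locus was not covered. The absence of calls therefore does not show equal levels. With edgeR (adjusted p under 0.05), 0 of 205 loci were called higher and 0 lower, and the share called over all 764 loci and features was 0% in each direction, with 1 locus at an unadjusted p under 0.05, the one on chromosome XIII. With edgeR the chromosome XIII locus was the 1 locus called higher with TMM factors (0.131% of everything tested called higher), with no filter on reads (0.0162%), with at least 30 reads (0.495%) and without control 1 (0.264%). Without Seb1-HTP 1, 50 loci were called higher, where 26.2% of everything tested was, and the chromosome XIII locus was not among them. DESeq2 called 1 locus higher, also that of chromosome XIII, with 184 loci left without an adjusted p, and over the 83 loci and features that had one it called 6.02% higher and 0% lower. In 183 of the 205 loci both controls were at 0. The median fitted log2 fold change was 5.26 over loci and 5.02 over everything tested. Of the 764 loci and features, 621 were at 0 in both controls and so passed the filter through their Seb1-HTP reads alone. A high median was thus built in. With no filter on reads it was 1.73 over loci and 2.50 over everything tested. Of the loci at 0 in both controls, 42 had a lower bound above 1 over the controls' floor, and without control 2 only the chromosome XIII locus did. Of the 559 features tested, 438 were also at 0 in both controls. Their bounds were not counted, so whether 42 is more than among features was not tested.

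Reads on both strands were common among the better covered loci. Of 200 loci of at least 10 reads outside the rDNA region and chromosome XIII, 121 (60.5%) overlapped a locus on the opposite strand, against 19.4% of loci under 10 reads, which have fewer chances to be met. Loci with such a partner held 59.4% and 53.0% of these reads in Seb1-HTP 1 and 2. There were 11 pairs with at least 20 reads on each strand, and in 6 of them the minus strand held more. In 3 of the 11 pairs a position differed from the genome in at least 50% of the covering reads of each strand, summed over libraries.

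Strand balance differed between the sets. Without the chromosome XIII locus, 45.3% and 34.2% of reads from the controls, and 42.5% and 49.5% of Seb1-HTP reads lay on the plus strand, which overlapped (means 39.8% ± 7.87 and 46.0% ± 4.96, SD, n = 2 each, exact permutation p = 0.667). Without the rDNA region as well, the shares were 78.0% and 62.5% in the controls, on 41 and 64 reads, and 49.4% and 52.2% with Seb1-HTP. The direction between the groups was thus turned by the rDNA region, whose loci were mostly on the minus strand.

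Unannotated reads were shorter with Seb1-HTP than in the controls. Reads of at least 35 nt were 72.0% (interval 61.0 to 80.9) and 80.3% (73.2 to 85.8) of unannotated reads in the controls, against 24.9% (23.8 to 26.0) and 21.4% (20.7 to 22.2) with Seb1-HTP. The groups did not overlap. Their means were 76.1% ± 5.84 and 23.1% ± 2.44 (SD, n = 2 each), with p = 0.333 in the exact permutation test, the smallest it can give. Median lengths were 42 and 46 nt in the controls, compared with 27 and 26 nt with Seb1-HTP.

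The gap in length was also present outside the 2 special sets. There, reads of at least 35 nt were 51.2% and 67.2% in the controls, against 12.6% and 15.8% with Seb1-HTP, with medians of 36, 39.5, 22 and 21 nt in control 1, control 2, Seb1-HTP 1 and Seb1-HTP 2. Among reads that name a feature outside chromosome XII, the same shares were 73.1% and 67.7% in the controls, compared with 47.8% and 48.1% with Seb1-HTP. Control reads were thus longer in both sets, and the difference in means was 45.0 percentage points for the unannotated and 22.4 for the named reads. As distinct intervals the 2 gaps were closer. The unannotated means were then 54.6% in the controls and 13.2% with Seb1-HTP, and the named means were 68.3% and 31.7%. In the rDNA region most unannotated reads were long in every library, 93.4% ± 5.15 in the controls and 85.3% ± 4.27 with Seb1-HTP (SD, n = 2 each).

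**Figure D4:**
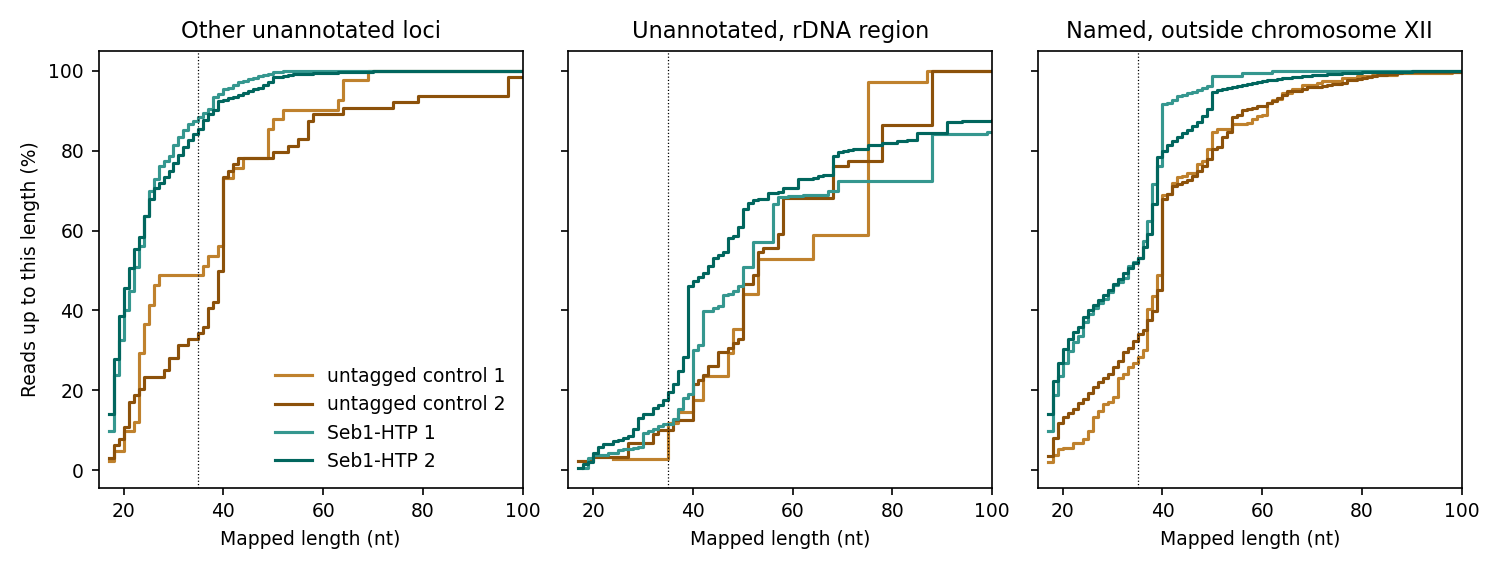
Cumulative share of reads (%) up to each mapped length (nt) in the 4 libraries, for unannotated loci outside the rDNA region and chromosome XIII, for unannotated loci of the rDNA region, and for reads naming a feature outside chromosome XII. The dotted line marks 35 nt. In the first panel the Seb1-HTP curves climb early, with medians of 22 and 21 nt, and the control curves later, with medians of 36 and 39.5 nt.

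Differences from the S. cerevisiae genome were listed for most unannotated reads of these S. pombe libraries, and their origin was not tested. A substitution or deletion was present in 74.7% and 72.4% of reads from the controls and in 68.5% and 72.0% of Seb1-HTP reads (means 73.5% ± 1.63 and 70.3% ± 2.48, SD, n = 2 each, exact permutation p = 0.333). That order came from the chromosome XIII locus, where reads without a difference were common: without it the Seb1-HTP shares were 83.2% and 81.8%, above both controls. Outside the rDNA region as well, they were 63.4% and 48.4% in the controls, against 81.4% and 82.0% with Seb1-HTP. Named reads outside chromosome XII had 73.8% and 60.8% in the controls, compared with 88.9% and 84.7% with Seb1-HTP, the same order.

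Over all unannotated reads, deletions were listed less often with Seb1-HTP than in the controls. They were listed for 7 of 75 (9.33%) and 14 of 152 (9.21%) unannotated control reads and in 2.38% and 1.25% of unannotated Seb1-HTP reads. Many of these reads with a deletion were in the single locus XII:489940-490398, 6 of 7 and 7 of 14 for the controls and 111 of 138 and 56 of 149 for Seb1-HTP. Within the rDNA region the groups overlapped, where a deletion was carried by 17.6% of reads in control 1, 11.4% in control 2, 26.4% in Seb1-HTP 1 and 12.6% in Seb1-HTP 2. Outside the rDNA region and chromosome XIII, deletions were in 1 of 41 and 4 of 64 control reads and in 0.911% and 1.18% of Seb1-HTP reads, and the intervals of control 1 and of both Seb1-HTP libraries overlapped. Named reads had the same order, 44.6% and 44.1% in the controls against 13.1% and 11.3% with Seb1-HTP. For named reads outside chromosome XII the shares were 9.57% and 6.34% against 1.23% and 3.74%. The lower share was thus not particular to unannotated reads.

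Loci differed widely in how often their reads differed from the genome and in how sharply they began. Among the 200 loci of at least 10 reads outside the rDNA region and chromosome XIII, a median of 20% of reads had no difference, with a range of 0% to 100%, and 40 loci had no read free of differences. The chromosome XIII locus, at 46.9%, was above 162 of them. The commonest 5′ end held a median of 33.3% of a locus's reads. On chromosome XIII it held 94.3%, and 24 of the 200 loci had a higher value.

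**Figure D5:**
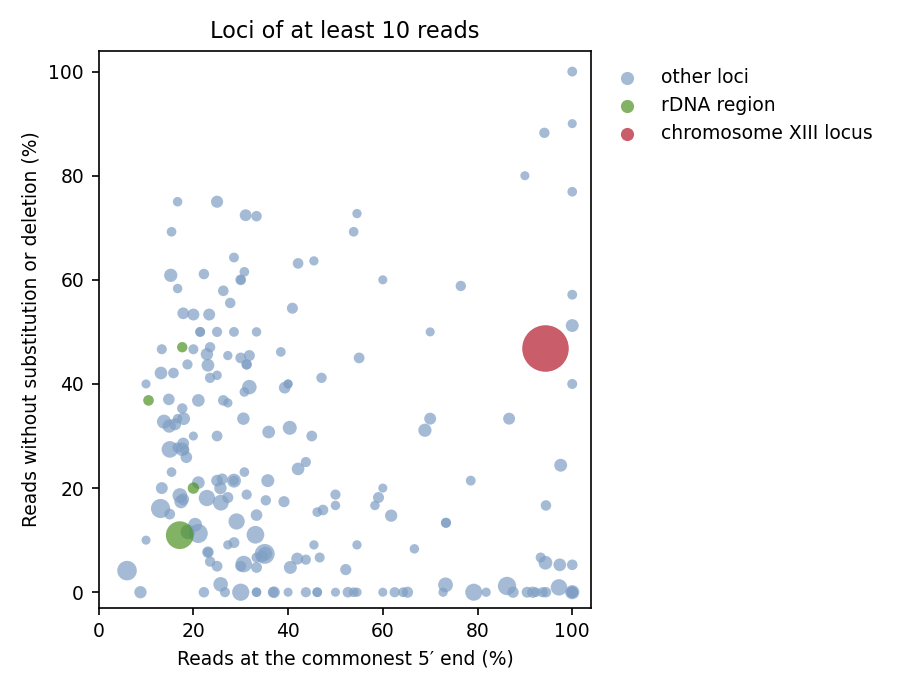
Loci of at least 10 reads, with the share of reads at the commonest 5′ end (%) on the horizontal axis and the share of reads without substitution or deletion (%) on the vertical axis. Point area grows with the square root of the reads of a locus. The chromosome XIII locus lies at 94.3% and 46.9%, and 40 of the other loci lie at 0% on the vertical axis.

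Outlines of the better covered loci were in part repeated between the Seb1-HTP libraries. Among the 18 loci with at least 20 reads in each of them, chromosome XIII included, 8 had the same commonest 5′ position in both. In 6 of the 18 at least 1 position differed from the genome in 80% or more of the covering reads of both libraries. At V:225397-225438 no read of either library was free of differences, and position 225412 differed in 100% and 96.0% of reads. At XV:960763-960809 position 960791 differed in 87.9% and 84.8%, and at VI:210333-210416 position 210408 in 92.3% and 82.4%. Positions that nearly always differed were thus met at several loci, whereas the most often differing position shared by both libraries on chromosome XIII, 238779, differed in 27.1% and 29.5% of covering reads.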

How the data were processed

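CRAC was sequenced from 2 untagged control and 2 Seb1-HTP libraries. The deposited files hold read counts for mapped intervals, with strand, overlapping features and listed differences from the genome. They were written by the authors with Counters 1.4.2, per the file headers. Novoalign 2.0.4 and build ASM294v2 were used, per the submitters' processing notes, yet names and positions are those of S. cerevisiae. The sources used here do not state whether repeated reads were collapsed, how reads with several sites were placed, or how much overlap a feature needed to be named. Records that share an interval and differ only in their listed differences are 1 distinct interval.

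Records without a name were merged into loci where they shared at least 1 nt (Python 3.11.15, pandas 2.3.3). The rDNA region ran over chromosome XII from 451780 to 490545. RPM used reads that name a feature (4579, 45339, 268030 and 231656). Raw reads numbered 35034, 202528, 3452998 and 3946246. Exact two-sided permutation tests (scipy 1.17.1) compared shares; they cannot go below p = 0.333. Loci of at least 10 reads were tested with features named alone by a record, with edgeR 4.0.16 in R 4.3.3, adjusted over the whole table; 16 loci stood at exactly 10 reads and 29 at 9, and 1794 loci with 3861 reads were not tested. Scripts were tested on simulated data.

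Loci named are that of chromosome XIII, the 12 others highest with Seb1-HTP, the 4 highest in controls, those in all libraries, the 4 with the smallest p in each direction and the 3 longest. V:394069-394099 and the plus-strand partners on chromosomes I and VIII are named outside that rule, after their values were seen, as are the 2 minus-strand loci opposite chromosome XIII. Neighbours are from the nearest named records within 2000 nt. The members, the lists and the rule were chosen with earlier results of these data known. Shares outside chromosome XII and without the rDNA region were added after seeing the data.

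Alternatives were TMM factors, DESeq2 1.42.0, other totals, filters and length limits, distinct intervals, merging over 50 nt, the replicate block and each library left out. Sequences of the loci were not analysed here, since they need the S. cerevisiae genome.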

Additional observations from a re-analysis of the deposited data

How the results depend on the processing

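With 2 libraries a group and a shallow control 1, no permutation test could pass its threshold, so a kept direction is all that the shares can show. Values are Seb1-HTP minus control in percentage points. The share of mapped reads outside features differed by 2.54 and by 7.44 as distinct intervals (1.15 to 3.93 with a library left out, 2.54 with the replicate block). The chromosome XIII share differed by 41.6, by 1.97 as distinct intervals and 58.4 for records of at least 25 nt (34.0 to 49.3 with a library left out). The share of at least 35 nt differed by -53.0, by -6.89 over named records, -23.9 with 25 nt as the limit and -45.0 without the chromosome XIII locus and rDNA region (-57.1 to -48.9 with a library left out). The share with a difference from the genome, -3.24, turned to 8.90 as distinct intervals, 9.02 without chromosome XIII and 25.8 without the rDNA region too, and was -7.46 for deletions alone (-5.00 to -1.49 with a library left out). The plus-strand share, 6.26, turned to -2.88 as distinct intervals and -19.4 without the rDNA region (0.694 to 11.8 with a library left out). The number of loci, 1999, was 944 with at least 2 reads, 436 in at least 2 libraries and 622 for records of at least 25 nt (781 to 1994 with a library left out, 781 without Seb1-HTP 2). Loci called numbered 1 with TMM factors, with no filter, with at least 30 reads and with DESeq2, each time chromosome XIII, and 0 to 50 with a library left out: 50 without Seb1-HTP 1, when 26.2% of all loci and features were called and chromosome XIII was not (adjusted p = 0.0674), and 1, chromosome XIII, without control 1. The replicate block gave 0 calls with 97 loci at an unadjusted p under 0.05, although equal numbers hardly deviate together (correlation 0.100 over 764 loci and features). With DESeq2 the median fitted log2 fold change of everything tested was 2.11 in place of 5.02, and with edgeR and TMM factors it was 5.00. Log2 fold changes that turned sign, with their range over libraries left out, were those of XII:489940-490398 (TMM 0.75, DESeq2 0.77), X:227941-228090 (TMM 0.81, DESeq2 0.77; -1.86 to 0.12), VII:999543-999577 (TMM 0.89, DESeq2 0.38; -2.29 to 0.76, the latter without control 1 or Seb1-HTP 1), XII:1024974-1025023 (TMM 0.012, distinct intervals 0.53; -4.23 to 5.67), XII:460623-460705 (-3.83 to 0.44) and V:394059-394105 (-0.12 without control 2 to 9.19). In X:227941-228090, XII:1024974-1025023 and XII:460623-460705 it was leaving out control 1 that turned the sign. None of these turned values was called, and the causes were not tested. Of the other named-locus results 214 kept direction and side of the threshold and 7 came to pass it. Depth limits the controls most: 3 reads are 655 RPM in control 1 and 66.2 RPM in control 2.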
